A study of Mus musculus with 20 samples.

Results

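Cholesterol is made from acetyl-CoA in a chain of enzyme reactions, and the transcripts of 6 of these enzymes and of 2 regulators of the pathway were examined in macrophages of the mouse dura mater. The enzymes were Hmgcs1, Idi1, Fdps, Fdft1, Sqle and Lss, and the regulators were Srebf2 and Insig1. These 8 genes were taken by their symbols from the 33243 rows of the count table, and all 8 passed the filter that left 16632 genes for testing. None of the 8 is an uptake receptor, so genes of cholesterol uptake are described below from separate lists.

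Hmgcs1 is the cytosolic synthase that forms HMG-CoA, an early step of the chain. Idi1 isomerizes isopentenyl diphosphate, Fdps joins isoprene units to farnesyl diphosphate, Fdft1 condenses farnesyl diphosphate to squalene, Sqle oxidizes squalene and Lss closes the rings to lanosterol. The transcription factor encoded by Srebf2 drives these genes after it is released from the endoplasmic reticulum when sterols are low, and Insig1 retains its precursor there when sterols are high. Insig1 is itself a target of the factor, which makes the 8 genes a feedback loop in which transcripts of the enzymes usually rise and fall together. In macrophages, inflammatory stimuli and interferons are known to alter both cholesterol synthesis and its oxidation and esterification.

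The study asked how CNS-associated macrophages of the cranial dura (dCAMs) respond to bacterial lipopolysaccharide (LPS) after the niche had been emptied and refilled. All mice were Ccr2creERT2/+ R26tdT/tdT, a genotype in which Ccr2+ cells such as monocytes, once exposed to tamoxifen, are marked for good by the red reporter tdTomato (tdT). All received the CSF1R inhibitor BLZ945 at 200 mg/kg for 7 days as young adults, and tamoxifen at 2 mg per day on the last of these days and 2 and 4 days afterwards. After 8 weeks, 5 mice were given LPS at 2.5 mg/kg and 5 were given PBS (CTL), and the dura was taken 12 h later. From each mouse, CD45int CD11b+ CD206int-high cells were sorted by their tdT signal, and the resulting pair of libraries per mouse gave 4 groups of 5 libraries: tdT- CTL, tdT+ CTL, tdT- LPS and tdT+ LPS. Because labeling marks only cells with Ccr2 expression during the tamoxifen days, the tdT- gate can hold macrophages that survived depletion as well as unlabeled newcomers.

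Library totals ranged from 6017650 to 12208203 counts in CTL mice and from 12073566 to 18925908 counts in LPS mice. The number of genes with at least 10 counts was 6671 to 9365 in tdT- CTL libraries and 10024 to 11987 in the other 15, so the tdT- CTL libraries stood apart before any gene was compared. The 12 macrophage markers (among them Mrc1, Csf1r and Cd68) were detected in every group, and their sum is given in CPM, a gene's count per 1000000 counts after TMM scaling. In CTL mice they summed to 6620 to 12880 CPM (tdT-) and 14700 to 16886 CPM (tdT+), and in LPS mice to 7394 to 8493 CPM (tdT-) and 8853 to 11207 CPM (tdT+). Single macrophage markers went opposite ways with LPS. Csf1r fell from 1796 to 3799 CPM to 1063 to 1717 CPM (tdT-) and from 5656 to 6283 CPM to 1056 to 1623 CPM (tdT+). Itgam rose from 88.3 to 220 CPM to 797 to 1027 CPM (tdT-) and from 159 to 234 CPM to 975 to 1187 CPM (tdT+). The 5 fibroblast markers summed to 3993 CPM in the tdT- CTL library of mouse 179 and to 876 CPM in that of mouse 175, against 10.9 to 336 CPM in the other 18 libraries. The 4 tested markers of dendritic cells summed to 556 CPM in the tdT- CTL library of mouse 174, to 303 CPM in that of mouse 175 and to 230 to 634 CPM in tdT- LPS libraries, and stayed at or under 52.3 CPM elsewhere. The members behind these sums differed. In tdT- LPS libraries Ccr7 stood at 222 to 599 CPM, Flt3 at 4.07 to 20.8 CPM and Zbtb46 at 3.44 to 14.1 CPM. In tdT- CTL libraries Ccr7 reached 214 CPM, Flt3 348 CPM and Zbtb46 197 CPM. In sorted bulk samples, fewer cells of a type and less RNA per cell cannot be told apart.

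Detection of the 8 genes differed between the groups. A count of 3 or fewer is treated here as the floor of a library. Of 40 values of the 8 genes, 13 lay at or under this floor in tdT- CTL libraries, 3 did so in tdT+ CTL libraries and 0 in either of the LPS groups. All 16 of these values belonged to enzymes and none to Srebf2 or Insig1. The tdT- CTL libraries of mice 177 and 179 each had 4 of the 8 genes at the floor, that of mouse 178 had 3, and those of mice 174 and 175 had Lss alone. After every library was thinned at random to the smallest total, the numbers were again 13, 3, 0 and 0. The same pattern held for genes in general: of 7204 other genes with a mean level in the range of the 8, 29.6% of values were at the floor in tdT- CTL libraries and 5.68% in tdT+ CTL libraries, while LPS libraries had 0.897% (tdT-) and 0.408% (tdT+).

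**Figure D1:**
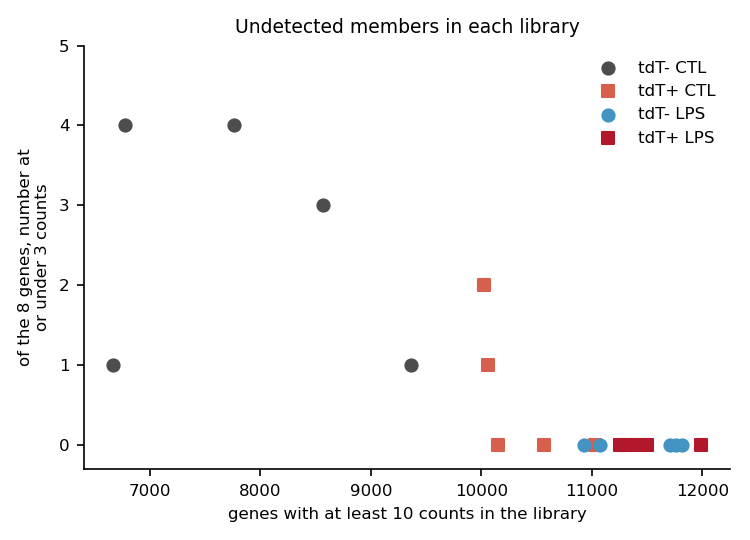
Number of the 8 genes at or under 3 counts (y axis) against the number of genes with at least 10 counts (x axis) in each of the 20 libraries, with the 4 groups by color and shape. The 5 tdT- CTL libraries lie at 6671 to 9365 detected genes and miss 1 to 4 of the 8, whereas the 10 LPS libraries miss 0.

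Lss, the lanosterol synthase, was the gene in which this difference was complete. Its count was 0 in each of the 5 tdT- CTL libraries. In tdT+ CTL libraries its level was 10.4, 3.29, 8.42, 3.67 and 29.7 CPM in mice 174, 175, 177, 178 and 179. In tdT- LPS libraries it was 14.9, 14.8, 7.07, 12.5 and 12.4 CPM in mice 54, 56, 59, 60 and 61, and in tdT+ LPS libraries of the same mice 23.3, 9.90, 7.03, 9.62 and 16.2 CPM. No tdT- CTL library overlapped any library of the other groups, which overlapped one another. Counts outside tdT- CTL were 31 or more.

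Lss was therefore called higher in tdT- dCAMs after LPS and higher in tdT+ than in tdT- dCAMs of CTL mice. Against the floor of 3 counts per library (mean 0.377 CPM), the level of 12.3 ± 3.17 CPM (SD, n = 5) in tdT- LPS was at least 32.7-fold higher (edgeR quasi-likelihood test, Benjamini-Hochberg adjusted p = 2.33e-05). The level of 11.1 ± 10.8 CPM (SD, n = 5) in tdT+ CTL was at least 29.4-fold higher (edgeR adjusted p = 1.42e-04), and tdT+ exceeded tdT- in 5 of 5 CTL mice. In tdT+ dCAMs the LPS level of 13.2 ± 6.58 CPM was not called different from CTL (log2 fold change 0.25 ± 0.74 SE, edgeR adjusted p = 0.957). The LPS effects of both populations differed by the test of that difference (edgeR adjusted p = 1.38e-03). When only the 10 CTL libraries were fitted, the comparison of the populations was no longer called (edgeR adjusted p = 0.194). That fit called 2 of 14405 genes higher and 5 lower. Lss was 1 of 65 genes (0.391% of those tested) that lay at the floor in every tdT- CTL library and above it in the other 15, and 0 genes had this pattern for any of the other 3 groups. The part of the low gene detection of tdT- CTL libraries in this result was not tested.

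**Figure D2:**
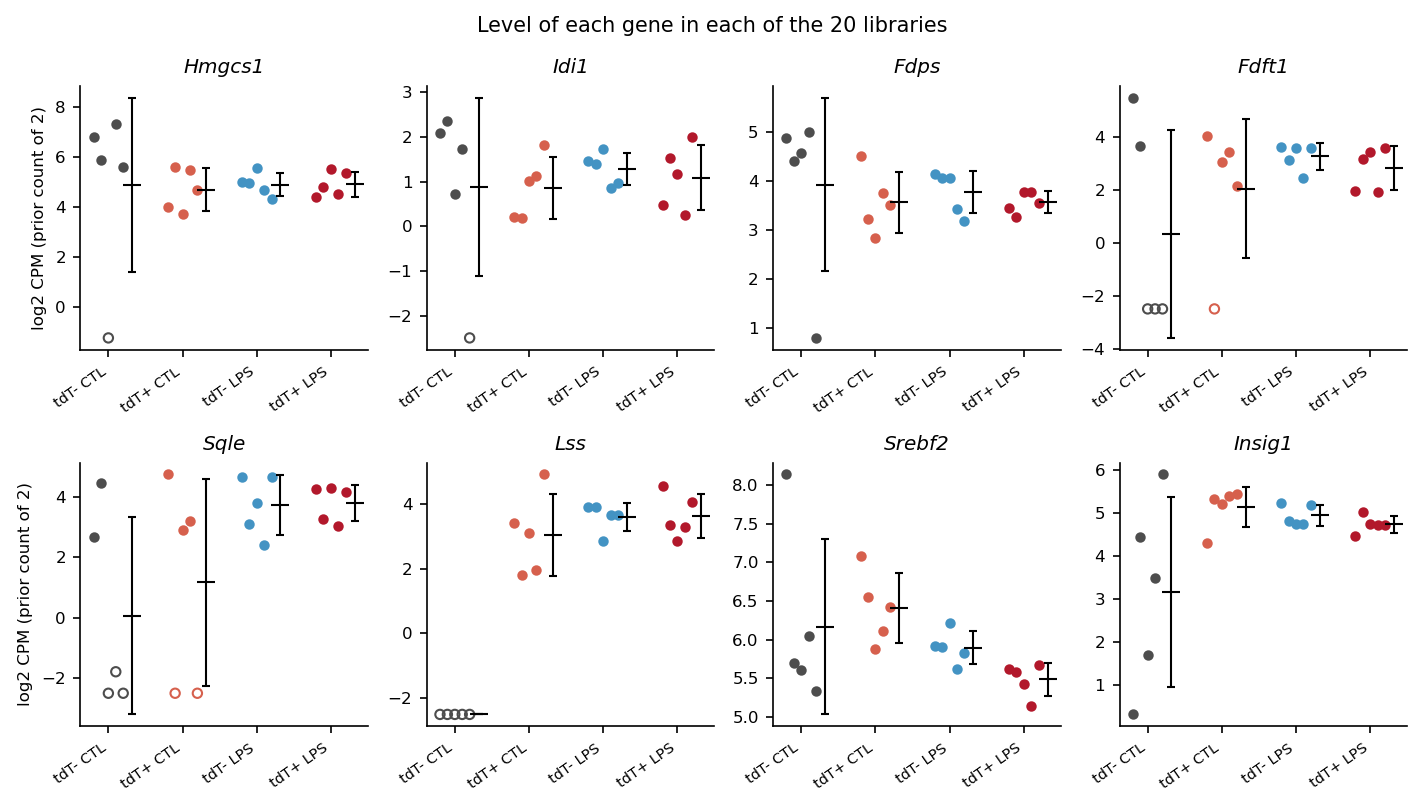
Level of each of the 8 genes in each of the 20 libraries, as log2 CPM with a prior count of 2, by group. Open circles are counts of 3 or fewer, and black marks are the mean and SD of the 5 libraries: the tdT- CTL values of the enzymes scatter widely and those of Lss all lie at 0 counts, while the LPS groups are compact.

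The 8 genes are protein coding and are located here on GRCm38 with the GENCODE M21 annotation, since the study's methods name more than 1 build. Hmgcs1 lies at chr13:119690379-119708260 and Idi1 at chr13:8885501-8892451, both on the plus strand. Fdps lies at chr3:89093588-89101959 and Fdft1 at chr14:63145150-63179578, both on the minus strand. Sqle lies at chr15:59315077-59331192, Lss at chr10:76531588-76557138, Srebf2 at chr15:82147181-82205379 and Insig1 at chr5:28071363-28078662, all on the plus strand. The library kit does not mark strand, and Fdft1 shares 774 bases at its end with Ctsb on the opposite strand, a lysosomal protease with 28305 to 118183 counts per library. Reads in that stretch cannot be told apart by strand. Idi1 has a processed pseudogene, Gm13502, with 684 aligned bases at 100% identity, and Fdft1 has Gm6781 with 1249 bases at 97.4%, so counts of these 2 enzymes are uncertain where reads map to both copies. Lss overlaps the antisense gene 4930483K19Rik, which has no row in the count table used here. Fdps shares 7512 bases of its span with the protein-coding gene Gm43738 on the same strand. Hmgcs1 shares 6190 bases of its span with the antisense gene Gm48342. Gm43738 and Gm48342 have no row in the count table either, and the part of such reads in the counts was not tested.

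Promoter sequence was available for 5 of the 8 genes (Hmgcs1, Idi1, Lss, Srebf2 and Insig1; RefSeq, GRCm38.p6). It is printed for the first enzyme of the set, for the enzyme that was undetected in tdT- CTL libraries and for the feedback regulator, from up to 250 bases before the RefSeq start to the first annotated start, 5′ to 3′ on the plus strand. Capitals mark a match to the sterol regulatory element (SRE) letters TCACNCCAC, to the CCAAT box or to the E-box CACGTG, each searched on both strands, and none of the 3 sets of letters overlaps another.
Hmgcs1, chr13:119690101-119690350: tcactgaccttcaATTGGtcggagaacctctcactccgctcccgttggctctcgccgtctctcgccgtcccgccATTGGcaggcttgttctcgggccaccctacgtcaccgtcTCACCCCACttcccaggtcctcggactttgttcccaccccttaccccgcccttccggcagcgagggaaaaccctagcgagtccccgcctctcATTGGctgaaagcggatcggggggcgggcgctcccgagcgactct
Lss, chr10:76531355-76531587: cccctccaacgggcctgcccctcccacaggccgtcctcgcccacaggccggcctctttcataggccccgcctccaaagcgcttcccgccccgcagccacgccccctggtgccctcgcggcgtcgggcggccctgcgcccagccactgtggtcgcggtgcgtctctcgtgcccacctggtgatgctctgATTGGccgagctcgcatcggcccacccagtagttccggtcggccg
Insig1, chr5:28071162-28071362: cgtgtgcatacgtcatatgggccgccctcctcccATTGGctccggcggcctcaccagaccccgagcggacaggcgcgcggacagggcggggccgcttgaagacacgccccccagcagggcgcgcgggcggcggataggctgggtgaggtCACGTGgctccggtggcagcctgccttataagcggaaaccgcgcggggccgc
Distances are to the RefSeq start, which for Lss and Insig1 lies past the end of the printed sequence. The SRE letters stood 137 bases before the Hmgcs1 start and were found in 1.05% of 32851 promoter windows of 250 bases. A CCAAT box, read on the opposite strand as ATTGG, was present in 5 of 5 windows of these genes, with 3 in Hmgcs1, 62 bases before the start of Lss and 216 bases before that of Insig1, and it was found in 33.8% of all windows. The E-box letters stood 101 bases before the Insig1 start and were found in 6.02% of all windows. These matches describe the letters of the windows and are not measurements of binding.

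The enzymes upstream of Lss showed no call in any of the 5 comparisons, and their spread in tdT- CTL libraries was wide. Hmgcs1 stood at 109, 58.2, 0.246, 160 and 48.0 CPM in the tdT- CTL libraries of mice 174, 175, 177, 178 and 179, and the value of mouse 177 rests on 2 counts. In tdT+ CTL libraries of these mice it stood at 15.6, 48.4, 12.9, 44.0 and 25.2 CPM. In LPS mice 54, 56, 59, 60 and 61 it stood at 31.7, 30.6, 46.6, 25.0 and 19.4 CPM in tdT- and at 20.9, 27.6, 44.7, 22.3 and 40.9 CPM in tdT+ libraries. Among the tdT- CTL values, those of mice 174, 175 and 178 thus lay above every library of the other groups, that of mouse 179 lay within their range and that of mouse 177 below it. After LPS, Hmgcs1 in tdT- dCAMs differed by a log2 fold change of -1.29 ± 0.78 (SE, edgeR adjusted p = 0.269). Without mouse 177 this became -1.61 and was called (edgeR adjusted p = 0.0271). That was the lowest value when each mouse was left out in turn, and the highest was -0.77. With limma-voom quality weights it was 0.49.

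Idi1 was the lowest of the 8 genes per length outside tdT- CTL. In CTL mice its counts were 0 to 45 (tdT-) and 6 to 44 (tdT+), and in LPS mice 20 to 51 (tdT-) and 13 to 67 (tdT+), which corresponds to at most 4.94 CPM. Its log2 fold change after LPS was -0.23 ± 0.96 (SE) in tdT- and 0.24 ± 0.96 in tdT+ dCAMs. Fdps ranged from 1.57 to 31.6 CPM (tdT-) and from 7.03 to 22.6 CPM (tdT+) in CTL mice, and from 8.95 to 17.6 CPM (tdT-) and 9.49 to 13.6 CPM (tdT+) in LPS mice. Its log2 fold change after LPS was -0.61 ± 0.62 in tdT- and -0.10 ± 0.62 in tdT+ dCAMs. The groups overlapped for both genes in every comparison.

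Fdft1 and Sqle, the enzymes that commit farnesyl diphosphate to sterols, were detected in some CTL libraries and not in others. Fdft1 had 44.9 and 12.6 CPM in the tdT- CTL libraries of mice 174 and 175 and 0 counts in those of mice 177, 178 and 179. In tdT+ CTL it had 16.6, 0, 8.30, 10.8 and 4.29 CPM in mice 174, 175, 177, 178 and 179, and in the 10 LPS libraries it ranged from 3.6 to 12.2 CPM. Sqle had 6.22, 22.1, 0, 0.113 and 0 CPM in tdT- CTL and 26.6, 0, 7.26, 9.01 and 0 CPM in tdT+ CTL libraries of the same mice, in the same order. In LPS mice 54, 56, 59, 60 and 61 it had 25.0, 8.43, 13.8, 5.08 and 25.4 CPM in tdT- and 19, 9.41, 19.4, 8.05 and 17.7 CPM in tdT+ libraries. Sqle was thus present in 10 of 10 LPS libraries and at or under the floor in 5 of 10 CTL libraries. The fits gave no call: the log2 fold change of Sqle after LPS was 1.45 ± 1.53 (SE, edgeR adjusted p = 0.560) in tdT- and 0.78 ± 1.5 (edgeR adjusted p = 0.900) in tdT+ dCAMs, and that of Fdft1 was -0.20 ± 1.45 and -0.02 ± 1.45. With mouse as a block in limma-voom, Sqle was called in tdT- dCAMs (log2 fold change 4.38, adjusted p = 0.0484). That fit called 3653 of 16632 genes higher and 870 lower.

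The regulators were detected in every library. Srebf2 stood at 135, 93.9, 58.5, 69.2 and 85.6 CPM in the tdT+ CTL libraries of mice 174, 175, 177, 178 and 179. In the tdT+ LPS libraries of mice 54, 56, 59, 60 and 61 it stood at 48.8, 47.6, 42.9, 35.2 and 50.9 CPM, each below every tdT+ CTL library. The mean level was 88.4 ± 29.4 CPM in CTL and 45.1 ± 6.26 CPM in LPS (SD, n = 5 each), a log2 fold change of -0.97 ± 0.45 (SE) that was not called in the joint fit (edgeR adjusted p = 0.237). Of all genes tested, 7.19% had every tdT+ LPS library below every tdT+ CTL library. The adjusted p was 8.87e-03 when the 10 tdT+ libraries were fitted alone with edgeR, and 8.72e-03 when the tdT- CTL libraries of mice 174 and 179 were left out of the joint fit, with log2 fold changes of -0.97 and -0.99, which stay inside the fold threshold of 1.

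In tdT- CTL libraries Srebf2 stood at 281, 51.5, 48.5, 66.0 and 40.2 CPM in mice 174, 175, 177, 178 and 179. In tdT- LPS libraries it stood at 60.5, 59.6, 73.8, 48.9 and 56.4 CPM in mice 54, 56, 59, 60 and 61, so the groups overlapped and only the library of mouse 174 stood far above the LPS range. The log2 fold change was -0.70 ± 0.45 (SE, edgeR adjusted p = 0.303), and without mouse 174 it was 0.20. Within LPS mice, Srebf2 was lower in tdT+ than in tdT- dCAMs in 5 of 5 mice (log2 fold change -0.41 ± 0.45 SE, edgeR adjusted p = 1), and within CTL mice it was higher in tdT+ dCAMs in 4 of 5. Between the populations, the LPS effects on Srebf2 differed by -0.27 ± 0.63 (SE, edgeR adjusted p = 1).

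Insig1 varied widely among tdT- CTL libraries and little elsewhere. It stood at 1.06, 21.6, 3.07, 11 and 59.1 CPM in the tdT- CTL libraries of mice 174, 175, 177, 178 and 179, and the library with the highest value, that of mouse 179, was also the one with the highest fibroblast markers, whose part in this value was not tested. In tdT+ CTL libraries of these mice it stood at 19.6, 39.6, 36.9, 41.5 and 43.2 CPM. In mice 54, 56, 59, 60 and 61 it stood at 37.0, 27.7, 26.7, 26.4 and 36.4 CPM in tdT- LPS and at 21.8, 32.2, 26.6, 26.1 and 26.1 CPM in tdT+ LPS libraries. The log2 fold change after LPS was 0.69 ± 0.68 (SE, edgeR adjusted p = 0.537) in tdT- and -0.45 ± 0.68 (edgeR adjusted p = 0.846) in tdT+ dCAMs. In CTL mice Insig1 was higher in tdT+ dCAMs in 4 of 5 mice, with a log2 fold change of 0.92 ± 0.69 (SE, edgeR adjusted p = 0.471). Without the tdT- CTL libraries of mice 174 and 179, this difference was 1.61 and was called (edgeR adjusted p = 0.0495). That fit called 752 of 16410 genes higher in tdT+ and 431 lower.

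With 8 genes, a single call already amounts to a share above each background of the main fit. The calls are therefore given as counts beside the share of all genes called. In tdT- dCAMs after LPS, 1 of the 8 genes was called, Lss, against 11.5% of all genes tested, and 7.2% of all genes were called higher. Every tdT- LPS library lay above every tdT- CTL library for 1 of the 8 genes and for 9.32% of all genes. In tdT+ dCAMs after LPS, 0 of the 8 genes were called by edgeR against 5.89% of all genes, 1 (Srebf2) had an unadjusted p under 0.05, and limma-voom and DESeq2 also called 0. Between the populations of CTL mice, 1 of the 8 was called, again Lss, against 4.28% of all genes and 3.01% called higher in tdT+, and every tdT+ library lay above every tdT- library for 1 of the 8 and for 2.36% of all genes. Between the populations of LPS mice, 0 of the 8 were called by edgeR, limma-voom or DESeq2, 0 had an unadjusted p under 0.05, and 0.0301% of all genes were called. For the test of whether LPS acted differently in both populations, 1 of the 8 was called (Lss), against 1.26% of all genes and 1.17% in its direction. The median log2 fold change of the 8 genes was -0.22 in tdT- and 0.04 in tdT+ dCAMs after LPS, where that of all genes was 0.02 and 0.01.

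**Figure D3:**
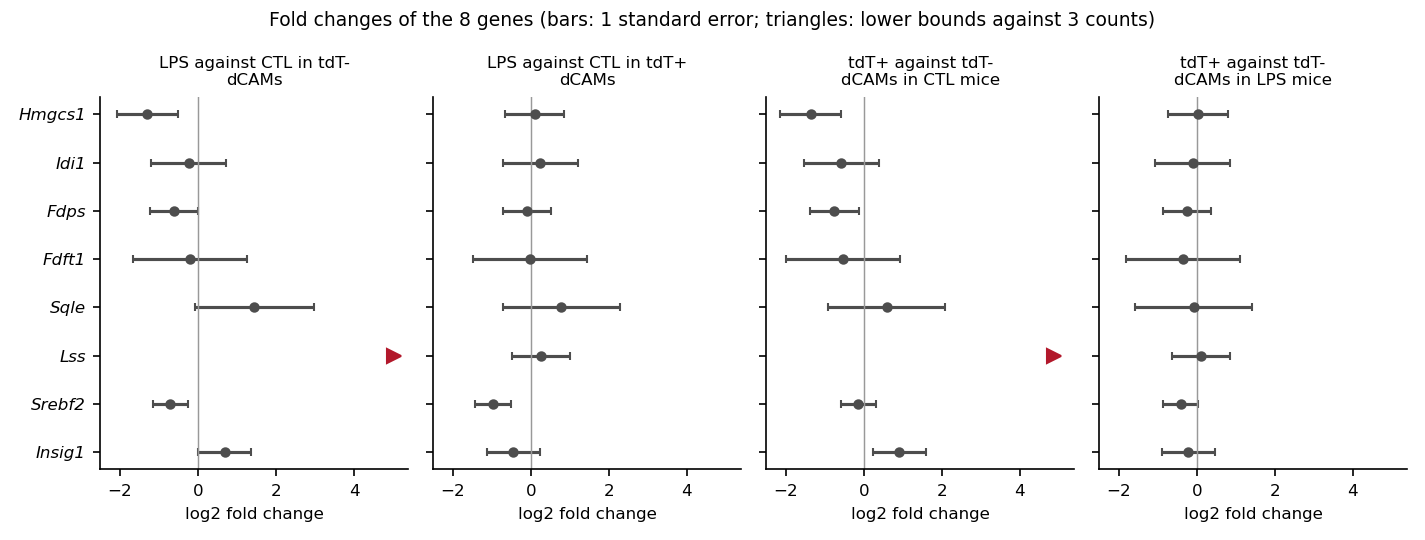
Log2 fold change of each of the 8 genes in the 4 comparisons of groups, with bars of 1 standard error from the edgeR fit over 20 libraries. Red triangles are lower bounds for Lss against the floor of 3 counts, 5.03 and 4.88 on the log2 scale, and all other values lie between -1.36 and 1.45.

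Between the populations of CTL mice the other enzymes were not called, and the libraries of both populations overlapped for each of them. Hmgcs1 was lower in tdT+ dCAMs in 4 of 5 mice, with a log2 fold change of -1.36 ± 0.78 (SE, edgeR adjusted p = 0.306), and Fdps was also lower in 4 of 5 mice, with -0.76 ± 0.63 (edgeR adjusted p = 0.525). The log2 fold change was -0.58 ± 0.97 for Idi1, -0.53 ± 1.46 for Fdft1, 0.59 ± 1.5 for Sqle and -0.14 ± 0.45 for Srebf2. In LPS mice the 8 values lay between -0.41 (Srebf2) and 0.10 (Lss).

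Per length, the regulators and Hmgcs1 led the set. Levels between genes were compared as CPM per kilobase of annotated exon. In tdT- LPS libraries the order was Insig1 (9.97 ± 1.74, SD), Srebf2 (8.33 ± 1.26), Hmgcs1 (6.68 ± 2.21), Fdps (3.33 ± 0.94), Sqle (2.80 ± 1.68), Fdft1 (2.37 ± 0.71), Lss (1.14 ± 0.29) and Idi1 (0.66 ± 0.18). In tdT+ LPS libraries Insig1 (8.59 ± 1.19), Hmgcs1 (6.81 ± 2.37) and Srebf2 (6.28 ± 0.87) again lay above Fdps (2.81 ± 0.42) and the other enzymes. In both LPS groups the break between the third and the fourth gene was the only one at which neighbors in this order did not overlap. In the CTL groups all neighbors in the order overlapped.

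The spread between mice followed the group. The SD of log2 CPM (prior count of 2) of the 8 genes had a median of 2.10 in tdT- CTL and 0.77 in tdT+ CTL libraries, against 0.43 (tdT-) and 0.55 (tdT+) in LPS mice. For the 7204 other genes of the same range of levels, the median SD was 3.08, 0.71, 0.42 and 0.35 in these groups. In the 10 LPS libraries, where all 8 genes were detected, deviations from the group means were correlated over 28 gene pairs with a median Pearson r of 0.20 and 9 pairs above 0.5. The highest values were those of Idi1 with Fdft1 (r = 0.85), Hmgcs1 with Idi1 (r = 0.76) and Idi1 with Srebf2 (r = 0.71), and the lowest was that of Hmgcs1 with Lss (r = -0.48). These are descriptions over 10 libraries from 5 mice, which share depth and sorting within a mouse.

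The genes outside the set that followed it most closely were Ago2 (r = 0.93), Zfp445 (r = 0.92), Brix1 (r = 0.92), Pex5 (r = 0.91) and Pgrmc2 (r = 0.91). The measure was Pearson's r over 20 libraries between log2 CPM and the mean scaled level of the 8 genes, computed for the 5820 genes whose log2 CPM averaged 4 or more. For deviations from the group means these genes had r of 0.90, 0.95, 0.90, 0.90 and 0.90. Each had its lowest value in a tdT- CTL library, such as 0.246 CPM for Ago2 and 0 for Zfp445 and Pgrmc2. The mean scaled level of the 8 genes itself had r = 0.60 with the number of detected genes per library, so these likenesses and detection share the same libraries.

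The rest of the pathway was examined with 6 lists of 65 genes in all, each of which was tested. Of 15 other enzymes of cholesterol synthesis, 0 were called in any of the 5 comparisons. In tdT- dCAMs after LPS, 0 of these 15 had an unadjusted p under 0.05 in edgeR, and in tdT+ dCAMs 1 had. After LPS the lowest value in tdT- dCAMs was that of Tm7sf2 (-2.47) and the highest in tdT+ dCAMs that of Hsd17b7 (1.82), both on the log2 scale. For the list as a whole the median was 0.22 in tdT- dCAMs and 0.34 in tdT+ dCAMs. Of 10 other regulators of the SREBP factors, among them Scap, Srebf1 and Insig2, 0 were called in any comparison and 0 had an unadjusted p under 0.05 after LPS in either population, with the lowest log2 fold change at -0.91 (Mbtps2) in tdT- dCAMs and values from -0.60 (Mbtps1) to 0.98 (Scap) in tdT+ dCAMs.

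Over the 6 lists, 7 of 65 genes were called after LPS in each population (3 rose and 4 fell), against 11.5% of all genes tested in tdT- and 5.89% in tdT+ dCAMs. In tdT- dCAMs this share was close to that of all genes, and the lists were not tested against other genes. Markers of other cells moved with LPS as well, and their part in the values of the lists was not tested. The 5 monocyte markers summed to 522 to 1003 CPM in CTL and 945 to 1523 CPM in LPS libraries of tdT- dCAMs, and to 160 to 467 CPM and 465 to 1052 CPM in those of tdT+ dCAMs. Members of this list went opposite ways. Hp stood at 0 to 4.50 CPM in tdT- CTL and 771 to 1127 CPM in tdT- LPS libraries. In tdT+ CTL and LPS libraries Hp stood at 0 to 3.07 CPM and 385 to 966 CPM. Ccr2 fell from 419 to 906 CPM in tdT- CTL to 55.2 to 92.2 CPM in tdT- LPS libraries. In tdT+ libraries Ccr2 fell from 160 to 463 CPM to 9.65 to 22.6 CPM. The 8 neutrophil markers summed to 162 to 468 CPM in CTL and 384 to 1056 CPM in LPS libraries of tdT- dCAMs, and to 510 to 688 CPM and 371 to 1070 CPM in those of tdT+ dCAMs. Among the neutrophil markers, Ly6g reached at most 1.54 CPM and Cxcr2 at most 7.65 CPM in any library, and both had 0 counts in each tdT+ CTL library. S100a8 was higher after LPS, at 0.659 to 29.1 CPM in tdT- CTL and 100 to 625 CPM in tdT- LPS libraries. In tdT+ libraries S100a8 stood at 0.105 to 9.20 CPM in CTL and 100 to 465 CPM in LPS. S100a9 reached 15.1 CPM in tdT- CTL and 14.6 CPM in tdT+ CTL libraries. After LPS it reached 2.18 CPM (tdT-) and 0.604 CPM (tdT+). Retnlg stood at 0 to 171 CPM in tdT- CTL and 23.2 to 642 CPM in tdT- LPS libraries, which overlapped. In tdT+ libraries Retnlg reached 7.13 CPM in CTL and 1.02 CPM in LPS. Mmp9 stood at 89.7 to 287 CPM in tdT- CTL and 32.9 to 133 CPM in tdT- LPS libraries.

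The genes called in both populations are described by list. Of 6 genes of oxysterol formation and esterification, 1 was called higher and 1 lower in each. Cyp27a1, the mitochondrial sterol hydroxylase that forms an oxysterol, fell from 146 ± 57.3 to 4.53 ± 3.72 CPM in tdT- dCAMs (SD, n = 5; log2 fold change -5.01 ± 0.58 SE, edgeR adjusted p = 4.74e-06) and from 216 ± 49.0 to 6.25 ± 3.11 CPM in tdT+ dCAMs (-5.11 ± 0.58, edgeR adjusted p = 3.36e-06). Its values per mouse were 217, 176, 64.4, 150 and 124 CPM in tdT- CTL and 7.86, 2.09, 0.983, 9.18 and 2.52 CPM in tdT- LPS, with 150 to 265 CPM in tdT+ CTL and 3.86 to 11.6 CPM in tdT+ LPS, so no LPS library overlapped a CTL library. Soat2, which esterifies cholesterol for storage, had 0 counts in each tdT- CTL library and 11.2 to 20.6 CPM in tdT- LPS, at least 41.2-fold higher (edgeR adjusted p = 8.43e-04). In tdT+ dCAMs Soat2 rose from 0 to 2.31 CPM in CTL to 17.8 to 23.2 CPM in LPS (edgeR adjusted p = 0.0202). That call was lost when any of the LPS mice 54, 56, 59, 60 or 61 was left out (edgeR adjusted p from 0.0553 to 0.0636). The value of 2.31 CPM, in mouse 177, was the only tdT+ CTL value above the floor, and the fitted log2 fold change of 5.4 became 9.12 without this mouse.

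Of 14 genes of uptake and lysosomal release, 2 were called lower and 0 higher in each population. In edgeR, 7 of the 14 had an unadjusted p under 0.05 in tdT- dCAMs and 4 in tdT+ dCAMs. Gramd1b, which was not called, stood at 0.91 to 13.5 CPM in tdT- CTL and 15.1 to 43.9 CPM in tdT- LPS libraries. In tdT+ libraries Gramd1b stood at 0 to 23.7 CPM in CTL and 25.3 to 48.8 CPM in LPS. Scarb1, the receptor for high-density lipoprotein, fell from 90.6 ± 38.4 to 33.5 ± 11.7 CPM in tdT- dCAMs (log2 fold change -1.43 ± 0.37 SE, edgeR adjusted p = 0.0131) and from 83.9 ± 30.7 to 28.5 ± 4.85 CPM in tdT+ dCAMs (-1.56 ± 0.37, edgeR adjusted p = 0.0111). Lipa, the lysosomal acid lipase that frees cholesterol from esters, fell from 174 ± 103 to 73.1 ± 20.02 CPM in tdT- dCAMs (-1.25 ± 0.39, edgeR adjusted p = 0.0385) and from 370 ± 88.2 to 76.9 ± 18.8 CPM in tdT+ dCAMs (-2.27 ± 0.40, edgeR adjusted p = 6.99e-04). In tdT- dCAMs the call of Lipa was lost without mouse 174, 175, 178, 54, 56, 59, 60 or 61 (edgeR adjusted p from 0.0685 to 0.111) and with mouse as a block in limma-voom (adjusted p = 0.114), and that of Scarb1 was lost without mouse 56 or 61 (0.0508 and 0.0517). Npc2, which hands cholesterol on inside the lysosome, was at 748 ± 217 and 1338 ± 193 CPM in tdT- CTL and LPS and at 641 ± 99.8 and 1248 ± 120 CPM in tdT+ CTL and LPS, with adjusted p of 2.23e-03 and 7.89e-04 in edgeR and log2 fold changes of 0.84 and 0.96 that stay inside the fold threshold.

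The isoprenoid branch leaves the pathway at farnesyl diphosphate. Of its 10 genes, 2 were called higher and 1 lower in tdT- dCAMs after LPS, and 1 higher and 1 lower in tdT+ dCAMs. Nus1, a subunit of the enzyme that makes the dolichol chain, rose from 35.1 ± 58.4 to 490 ± 63.0 CPM in tdT- dCAMs (log2 fold change 3.80 ± 0.82 SE, edgeR adjusted p = 3.39e-03) and from 48.9 ± 19.1 to 588 ± 73.5 CPM in tdT+ dCAMs (3.58 ± 0.81, edgeR adjusted p = 7.40e-03), with no overlap between CTL and LPS libraries in either. In tdT- CTL, mouse 177 stood at 138 CPM and the other 4 mice at 1.69 to 27.6 CPM. Without mouse 177 the log2 fold change in tdT- dCAMs was 5.70, and with the 10 tdT- libraries alone the call was lost (edgeR adjusted p = 0.0599). Fnta, a subunit shared by the protein prenyltransferases, fell from 89.0 ± 27.3 to 42.8 ± 4.16 CPM in tdT- dCAMs (-1.06 ± 0.33, edgeR adjusted p = 0.0361) and from 112 ± 50.3 to 39.3 ± 8.73 CPM in tdT+ dCAMs (-1.52 ± 0.33, edgeR adjusted p = 5.00e-03). In tdT- dCAMs the call of Fnta was lost without mouse 178, 179, 54, 56, 59, 60 or 61, where the log2 fold change was -1.10 to -0.88 (edgeR adjusted p from 0.0419 to 0.113). Pdss1, which builds the side chain of ubiquinone, resembled Lss: it had 0 counts in every tdT- CTL library, 0 to 4.67 CPM in tdT+ CTL and 7.31 to 19.2 CPM in tdT- LPS, where it was at least 36.5-fold higher (edgeR adjusted p = 1.80e-04). It was also called between the populations of CTL mice (edgeR adjusted p = 3.35e-03), a call that was lost with the 10 CTL libraries alone (edgeR adjusted p = 0.309) and with limma-voom quality weights (adjusted p = 0.0627). It was further called in the difference between the LPS effects (edgeR adjusted p = 0.0213), where the call was lost without mouse 54, 56, 59, 60 or 61 (edgeR adjusted p from 0.0790 to 0.0906) and with mouse as a block in edgeR (adjusted p = 0.0737).

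Of 10 fatty acid genes of the SREBP pathway, 0 were called in tdT- dCAMs after LPS, where 3 had an unadjusted p under 0.05, and 1 was called in tdT+ dCAMs. Elovl5, an elongase of polyunsaturated fatty acids, rose from 51.6 ± 31.3 to 175 ± 29.5 CPM in tdT+ dCAMs (log2 fold change 1.76 ± 0.51 SE, edgeR adjusted p = 0.0416). In tdT- dCAMs Elovl5 stood at 171 ± 126 CPM in CTL (21.2 to 313 CPM) and 186 ± 51.7 CPM in LPS. Its call in tdT+ dCAMs was lost without mouse 174, 177, 179, 54, 56, 59, 60 or 61 (edgeR adjusted p from 0.0741 to 0.107) and with mouse as a block in limma-voom (adjusted p = 0.0553). Scd1, the stearoyl-CoA desaturase, had the highest value of the list in both populations (4.79 and 3.69) and Fads2 the lowest (-3.15 and -2.03), none of them called. Over the 65 genes, 1 was called between the populations in CTL mice, against 4.28% of all genes, and 0 were called in LPS mice.

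**Figure D4:**
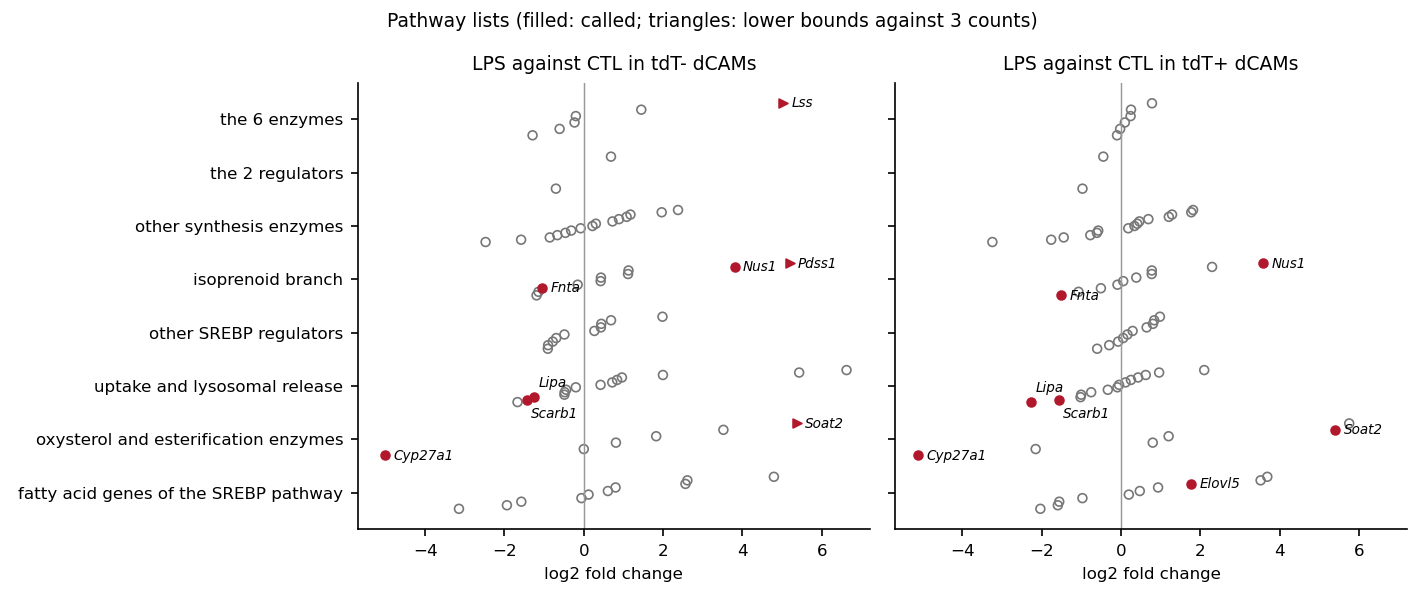
Log2 fold change after LPS in tdT- (left) and tdT+ (right) dCAMs for the 8 genes and the 6 lists, 1 point per gene. Filled red points are called and labeled, triangles are lower bounds against the floor of 3 counts, and open points are not called: Cyp27a1, Scarb1, Lipa and Fnta lie to the left and Nus1 and Soat2 to the right in both panels, while the 15 other synthesis enzymes hold 0 called genes.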

How the data were processed

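Per the labels, the authors made low-input, unstranded libraries without molecular identifiers, aligned reads with STAR 2.7.11a and assigned them with featureCounts 2.0.6. The deposited table holds their raw counts per gene symbol for 20 libraries, and 0 of its columns lacked a sample. PCR copies are counted as reads, so the floor of 3 counts covers counting error only, whereas SDs and standard errors include the spread between mice. Groups came from the labels, and the mouse number ties the tdT+ and tdT- library of an animal (correlation of their deviations from the group means -0.0046 to 0.0461 in CTL and 0.228 to 0.449 in LPS mice).

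Genes with a total under 10 counts were removed. TMM-scaled counts were fitted over all 20 libraries with edgeR 4.0.16 (quasi-likelihood, 1 mean per group, common coefficient of variation 1.13), and a gene was called when its adjusted p (Benjamini-Hochberg) was below 0.05 and its log2 fold change beyond 1 in either direction. limma 3.58.1, DESeq2 1.42.0, another scaling, no filter, title letter, thinning, mouse blocks and leaving out mice were alternatives. Fold changes against a group at 0 counts were computed against 3 counts per library. Exon lengths and overlaps came from GENCODE M21 and blastn 2.17.0+ (identity of at least 95% over 200 bases). Named genes are the 8 genes, list genes called after LPS in both populations, between populations or in the difference, the extremes of lists (some are not reported here), and the 5 genes most like the 8; Npc2 and Elovl5 were named after their values were seen. The 8 genes and all lists were chosen with earlier results of these data known.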

Additional observations from a re-analysis of the deposited data

Results flagged for a closer look

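Lss was flagged because the difference between its LPS effects in tdT+ and tdT- dCAMs was called (fitted log2 difference -9.87, edgeR adjusted p = 1.38e-03), a fitted size that depends on the prior count because all 5 tdT- CTL libraries were at 0 counts. Pdss1 was flagged in the same way (fitted log2 difference -7.98, edgeR adjusted p = 0.0213) and also had 0 counts in all 5 tdT- CTL libraries.

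Of 31 sets of 5 libraries checked for a value far from the other 4, 5 held one, where chance flags about 1 in 20 sets. Of these, 3 lay in tdT- CTL libraries. Hmgcs1 stood at 0.246 CPM in mouse 177, against 48.0 to 160 CPM in the other 4. Fdps stood at 1.57 CPM in mouse 179, against 21.1 to 31.6 CPM. Srebf2 stood at 281 CPM in mouse 174, against 40.2 to 66.0 CPM. Insig1 stood at 19.6 CPM in the tdT+ CTL library of mouse 174, against 36.9 to 43.2 CPM, and Lss stood at 7.07 CPM in the tdT- LPS library of mouse 59, against 12.4 to 14.9 CPM.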

How the results depend on the processing

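With mouse as a replicate block in limma-voom, 2 of the 8 genes were called in tdT- dCAMs after LPS (Lss and Sqle). Between the populations of CTL mice 2 were called (Lss and Insig1). In tdT- dCAMs after LPS, that fit called 3653 of 16632 genes higher and 870 lower, against 1197 and 710 in the main fit. Between the populations of CTL mice it called 1966 higher in tdT+ and 279 lower, against 500 and 212. Without the tdT- CTL libraries of mice 174 and 179, a choice made after seeing the data, 2 of the 8 genes were called in CTL mice (Lss and Insig1). Of 16410 genes, 752 were called higher in tdT+ and 431 lower in that fit. With the 10 CTL libraries alone, 0 of the 8 genes were called, and of 14405 genes 2 were called higher and 5 lower. Leaving out a mouse gave 1 to 2 called members in tdT- dCAMs after LPS, with Hmgcs1 the second without mouse 177. Without that mouse, 1317 of 16396 genes were called higher and 778 lower. All other counts of called members were equal to the main one, and the block in edgeR changed none of them. Among list genes the block ended the calls of Lipa (tdT-), Elovl5 (tdT+) and Pdss1 (difference) and changed no other. With the 10 tdT- libraries alone, the LPS calls of Lipa, Scarb1, Fnta and Nus1 were lost (edgeR adjusted p 0.174, 0.114, 0.161 and 0.0599). Those of Lipa and Fnta in tdT- dCAMs were also lost with quality weights (0.227 and 0.123), that of Lipa with the title letter (0.0543) and that of Fnta with no filter (0.0674). The 0 calls in tdT+ dCAMs after LPS and in LPS mice held under every alternative run.

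Uncalled members often changed sign, without being called, and the cause was not tested. Values are log2 fold changes. In tdT- dCAMs after LPS, the block in limma-voom gave Hmgcs1 0.16, Idi1 0.65 and Fdft1 3.81, quality weights gave Hmgcs1 0.49, Idi1 0.28 and Fdft1 3.78, the title letter gave Fdft1 0.14, and leaving out the libraries of mice 174 and 179 gave Fdft1 1.22 and Srebf2 0.10. In tdT+ dCAMs after LPS, the block in limma-voom gave Fdps 0.0202 and Fdft1 1.14, quality weights gave Fdps 0.0746 and Fdft1 0.90, the title letter gave Fdft1 0.0826 and thinning gave Fdft1 0.0065. Between the populations of CTL mice, the block in edgeR gave Fdft1 4.38 and Srebf2 0.26, the block in limma-voom gave Idi1 0.21, Fdft1 2.22 and Srebf2 0.29, quality weights gave Hmgcs1 0.27, Fdft1 2.44 and Srebf2 0.30, and leaving out the libraries of mice 174 and 179 gave Fdft1 0.92 and Srebf2 0.68.

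Leaving out each mouse in turn gave these ranges. In tdT- dCAMs after LPS they were -0.55 to 0.22 for Idi1, -0.52 to 1.63 for Fdft1, 1.10 to 3.41 for Sqle, 0.35 to 1.74 for Insig1 and -0.90 to 0.20 for Srebf2. In tdT+ dCAMs after LPS they were -0.0913 to 0.35 for Hmgcs1, -0.0581 to 0.58 for Idi1, -0.25 to 0.19 for Fdps, -0.33 to 0.41 for Fdft1, 0.46 to 1.84 for Sqle and -0.0725 to 1.04 for Lss. Between the populations of CTL mice they were -1.24 to 0.0782 for Idi1, -0.89 to 0.88 for Fdft1, -0.45 to 2.88 for Sqle and -0.33 to 0.58 for Srebf2. Idi1 had at most 67 counts in a library, and the part of depth in its values was not tested.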
